A study of Mus musculus with 10 samples.

Results

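Ribosomal protein genes encode the protein part of the cytosolic ribosome. Taken here were all genes whose only annotated symbol is Rpl or Rps followed by a number and optional letters, together with Rplp0, Rplp1, Rplp2 and Rpsa, and without the Rps6k kinases. This gave 59 of the 17991 genes measured, 40 of the large and 19 of the small subunit, read by 76 of 36061 probes. RefSeq lists 84 protein-coding genes with such symbols. The other 25, among them Rpl10, Rps27 and Rps6, had no probe with that symbol alone and were not analysed here, and 11 probes that list a member beside another gene were not used. Every member had at least 3 values in each region, so none was lost to the filter.

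The tissue was abdominal aorta of male ApoE-/- mice aged 14 weeks, a knockout of apolipoprotein E that raises plasma cholesterol and leads to atherosclerosis. Infrarenal aorta, the segment below the renal arteries, was set against suprarenal aorta, the segment above, each with 5 arrays. An array holds RNA pooled from 2 mice, and each pool was divided into both segments. The array titles number them 1, 6, 8, 11 and 12, taken here as the pools. Both groups carry the knockout, and no group without it was analysed here. RNA came from whole segments, so fewer cells of a type and less RNA per cell cannot be told apart.

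The cytosolic ribosome joins ribosomal RNA with a large set of proteins in a small subunit, which reads the mRNA, and a large subunit, which forms the peptide bond. Its protein genes are among the most strongly and evenly transcribed genes of most cells, and several serve as reference genes for quantitative PCR. Their mRNAs typically begin with a C and a run of pyrimidines, the terminal oligopyrimidine tract, through which translation of the whole set is tuned by mTOR signalling. A few members have a copy used in special tissues, such as Rpl3l in striated muscle and Rpl39l in testis.

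A run of pyrimidines near the annotated start was found for 26 of the 47 members whose promoter sequence was at hand. RefSeq promoter windows on GRCm38.p6, from 250 bases before the start to 50 after it, were matched by symbol for 47 members, with 58 windows, some of which overlap. A run of at least 8 pyrimidines that begins with a C, on the sense strand between 20 bases before and 30 after the start, was found in 27 windows (46.6%) and in 14.8% of the 32793 windows of other genes. The run was most frequent around base 3 after the start, which it covered in 25.9% of member windows and 3.47% of the others. At base 35 a run covered 24.1% and 3.34%. Shown are 30 bases around the start, 15 on each side, for 6 members whose run lies at the start and for Rpl3l and Rplp0, where no run lies within these bases. Capitals mark the run.
Rpl35: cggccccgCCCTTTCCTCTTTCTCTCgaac
Rpl7a: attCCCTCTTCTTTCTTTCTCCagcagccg
Rpl15: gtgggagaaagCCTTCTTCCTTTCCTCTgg
Rpl14: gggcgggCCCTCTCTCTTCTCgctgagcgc
Rplp2: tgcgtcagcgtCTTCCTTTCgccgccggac
Rps10: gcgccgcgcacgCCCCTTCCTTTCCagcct
Rpl3l: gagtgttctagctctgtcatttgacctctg
Rplp0: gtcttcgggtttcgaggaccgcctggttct
These lie at chr2:39005117-39005146 (minus strand) for Rpl35, chr2:26910792-26910821 (plus) for Rpl7a, chr14:18270972-18271001 (minus) for Rpl15 and chr9:120571502-120571531 (plus) for Rpl14. Those of Rplp2, Rps10, Rpl3l and Rplp0 lie at chr7:141447636-141447665 (plus), chr17:27635230-27635259 (minus), chr17:24727811-24727840 (plus) and chr5:115559452-115559481 (plus).

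Other letters were also more frequent in these windows than in those of other genes. CCGGAAG, on either strand of the whole window, was in 36.2% of member windows and 8.81% of the others. GGGCGG, on either strand, was in 60.3% and 35.6%. AAGATGGC, on either strand from 100 bases before to 50 after the start, was in 8.62% and 1.72%. TATAAA, on the sense strand in the 50 bases before the start, was in none of the 58 member windows and in 2.63% of the others. The median GC content was 57.8% in member windows and 52.7% in the others. These are matches of letters and not binding sites, and a window without a match says nothing about a factor. The 26 members with a pyrimidine run had a median regional difference of -0.081 log2 units (infrarenal minus suprarenal), with 24 negative, and the 21 without had -0.060, with 18 negative.

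The label of the tissue was looked at first. Of 12 smooth muscle markers, 6 read within the brightest 1% of probes: Acta2, Tagln, Myh11, Cnn1, Mylk and Myl9. The lowest were Myocd, Tpm2, Lmod1 and Des, at percentiles 65.6, 80.7, 87.8 and 91.6. The summed intensity of the 12 ran from 1891 to 1983 in infrarenal and from 1926 to 1989 in suprarenal aorta. Tissue around the vessel varied more. The summed intensity of 19 skeletal muscle markers ran from 103 to 769 in infrarenal and from 57.3 to 816 in suprarenal arrays, and that of 12 brown adipocyte markers from 209 to 916 and from 199 to 1103. No marker was at the floor, the lowest value allowed, on all arrays. Median differences were 0.31 for skeletal muscle, -0.55 for brown adipocyte, -0.22 for general adipocyte, -0.17 for sympathetic and chromaffin, -0.25 for macrophage, -0.033 for T and B cell, 0.025 for endothelial, 0.043 for smooth muscle and -0.073 for proliferation markers, with 0 calls after adjustment. Single pools decided several of these medians. Without pool 12 they were 1.11 for skeletal muscle, -1.17 for brown adipocyte, -0.42 for general adipocyte and -0.64 for sympathetic and chromaffin markers. They were then -0.22 for macrophage, -0.16 for T and B cell, 0.045 for endothelial, 0.072 for smooth muscle and -0.028 for proliferation markers. With each pool left out in turn the skeletal muscle median ran from -0.40 to 1.11, the brown adipocyte median from -1.17 to -0.22, the general adipocyte median from -0.42 to 0.028, the sympathetic median from -0.64 to 0.15 the endothelial median from -0.077 to 0.045, the T and B cell median from -0.16 to 0.036, the smooth muscle median from -0.00036 to 0.072 and the proliferation median from -0.13 to -0.028. The part of these markers in the results was not tested. Pool 12 went against the other pools. Hox genes of paralogue groups 9 to 13, which mark the tail end of the body, were higher in infrarenal aorta by 0.17, 0.38, 0.55 and 0.88 log2 units in pools 1, 6, 8 and 11 but differed by -0.88 in pool 12. Given with and without this pool are the medians over the members, the subunits and the lists as deposited. So are the counts of the 59 members by sign and by unadjusted p.

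Most members read at the top of the array. The probe that stands for a gene, the one of highest mean over the arrays, had a mean log2 intensity above 7 for 36 members, and 39 members (66.1%) lay within the brightest 1% of all probes, against 1.55% of all genes. The brightest member probes were those of Rpl41, which encodes the shortest ribosomal protein, Rpl19, Rps14 and Rplp0, at 8.49, 8.45, 8.42 and 8.40. The highest value of any probe ran from 8.58 to 8.81 on infrarenal and from 8.63 to 8.92 on suprarenal arrays, so these members read close to the upper end of the scale. Whether the signal is compressed there was not tested. Together the 59 members held 3.61 ± 0.22% of the summed intensity of infrarenal arrays and 3.47 ± 0.22% of that of suprarenal arrays (SD, n = 5 each).

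Brightness depends on the probe as well as the transcript and is no measure of which member is more abundant. Of 62 member probes that list a RefSeq transcript accession, the median level was 7.64, and of the 14 that list only other accessions it was -0.90. Among other genes the medians were 1.44 and -0.37. Of the 11 members whose brightest probe stayed below 3, 7 were read only by probes of the second kind: Rpl15, Rpl29, Rpsa, Rpl17, Rpl7a, Rpl34 and Rps2. The remaining 4 were Rplp1, Rps15a, Rpl39l and Rpl3l. The lowest were Rps2, of the mRNA entry region of the small subunit, at -2.98, and Rpl34, of the large subunit, at -2.53.

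**Figure D1:**
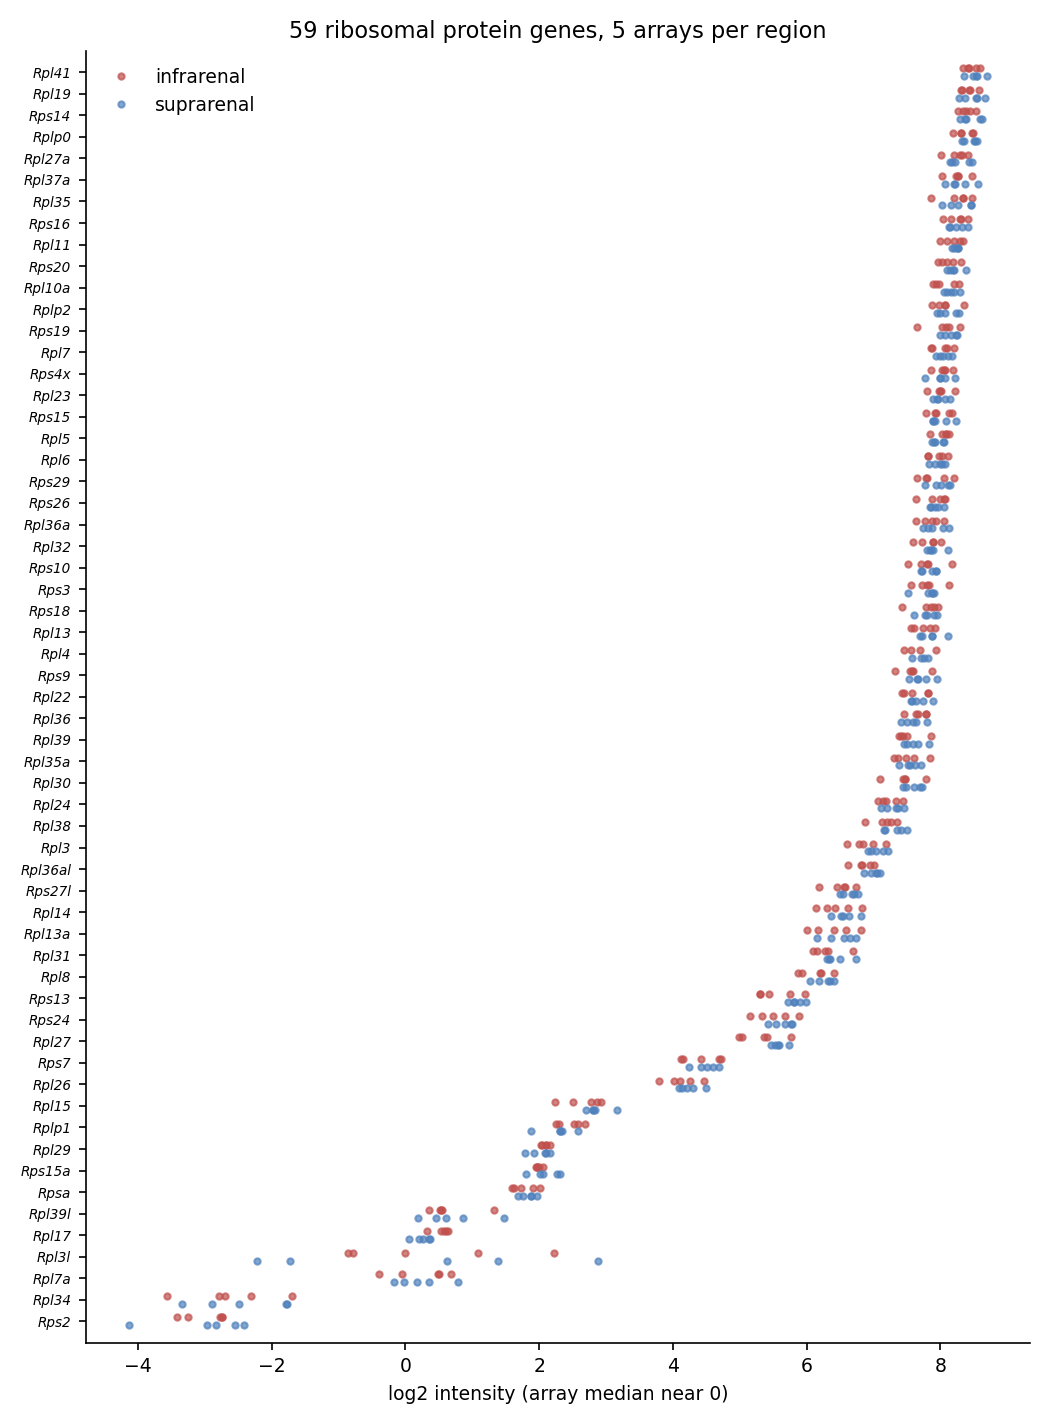
Log2 intensity (x axis) of the 59 members (y axis, sorted by mean) on each of 5 infrarenal arrays (red) and 5 suprarenal arrays (blue), each point being an array. The points of both regions overlap for every member, as for all probes but 0.591% (infrarenal above) and 0.738% (infrarenal below). Rpl3l, Rpl34, Rps2 and Rpl39l have the widest spread.

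No ribosomal protein gene differed between the regions after adjustment. By limma with the pool as a block, 0 of 59 members passed an adjusted p of 0.05, as did 0 of 36061 probes (0%), and the smallest adjusted p among the members was 0.639. At an unadjusted p under 0.05 there were 3 members (Rpl17 higher, Rps13 and Rpl27 lower in infrarenal aorta), or 5.08%, where 7.56% of all probes had one. The median difference was -0.063 ± 0.092 log2 units over the members (SD of the median over 5 pools) and -0.049 ± 0.047 over all genes. Without pool 12 the medians were -0.057 and -0.037, and with each pool left out in turn the member median ran from -0.099 (without pool 1) to -0.046 (without pool 8). Without pool 12 the members with an unadjusted p under 0.05 were 1 higher and 0 lower, where 10.9% of all probes had one. The large and small subunits had medians of -0.064 ± 0.106 and -0.058 ± 0.085, with -0.099 for the large subunit without pool 1 and -0.089 for the small subunit without pool 8. Without pool 12 the subunit medians were -0.060 and -0.051.

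The sign of these small differences depended on the scaling. As deposited, 9 members were higher and 50 lower in infrarenal aorta, while 60.4% of all genes were lower. Without pool 12 these counts were 12 and 47, and 57.5% of all genes were lower. Of the 36 members with a mean above 7, 32 were lower, with a median difference of -0.051. Of the 126 other genes with a mean above 7, 101 (80.2%) were lower, with a median of -0.080. After quantile normalization, which moved the median of all genes to 0.0015, 41 members were higher and 18 lower, with a median of 0.024. Of all genes 49.7% were lower after this normalization. Pool by pool the member median was 0.074, -0.142, -0.135, -0.00098 and -0.069 in pools 1, 6, 8, 11 and 12, as deposited. In 5 of 5 pools 2 members were lower, Rpl3 and Rpl36al, and 0 were higher, where 5.24% and 3.85% of all probes were. The groups overlapped for all 59 genes on the probe that stands for each. Of all probes, 0.591% had all infrarenal values above and 0.738% all infrarenal values below the suprarenal ones, so overlap was the rule.

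Under the scaling as deposited, the intervals bound how large a regional difference in probe signal could be. The 95% interval of the difference had a median half-width of 0.204 log2 units over the members and 0.313 over all genes. It lay within 0.5 log2 units of 0 for 52 members and within 1 for 57, the exceptions to the second being Rpl34 and Rpl3l. For the 36 members with a mean above 7, a limit chosen after the values were seen, the differences ran from -0.153 to 0.076 and the intervals reached from -0.354 to 0.292 at their widest.

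**Figure D2:**
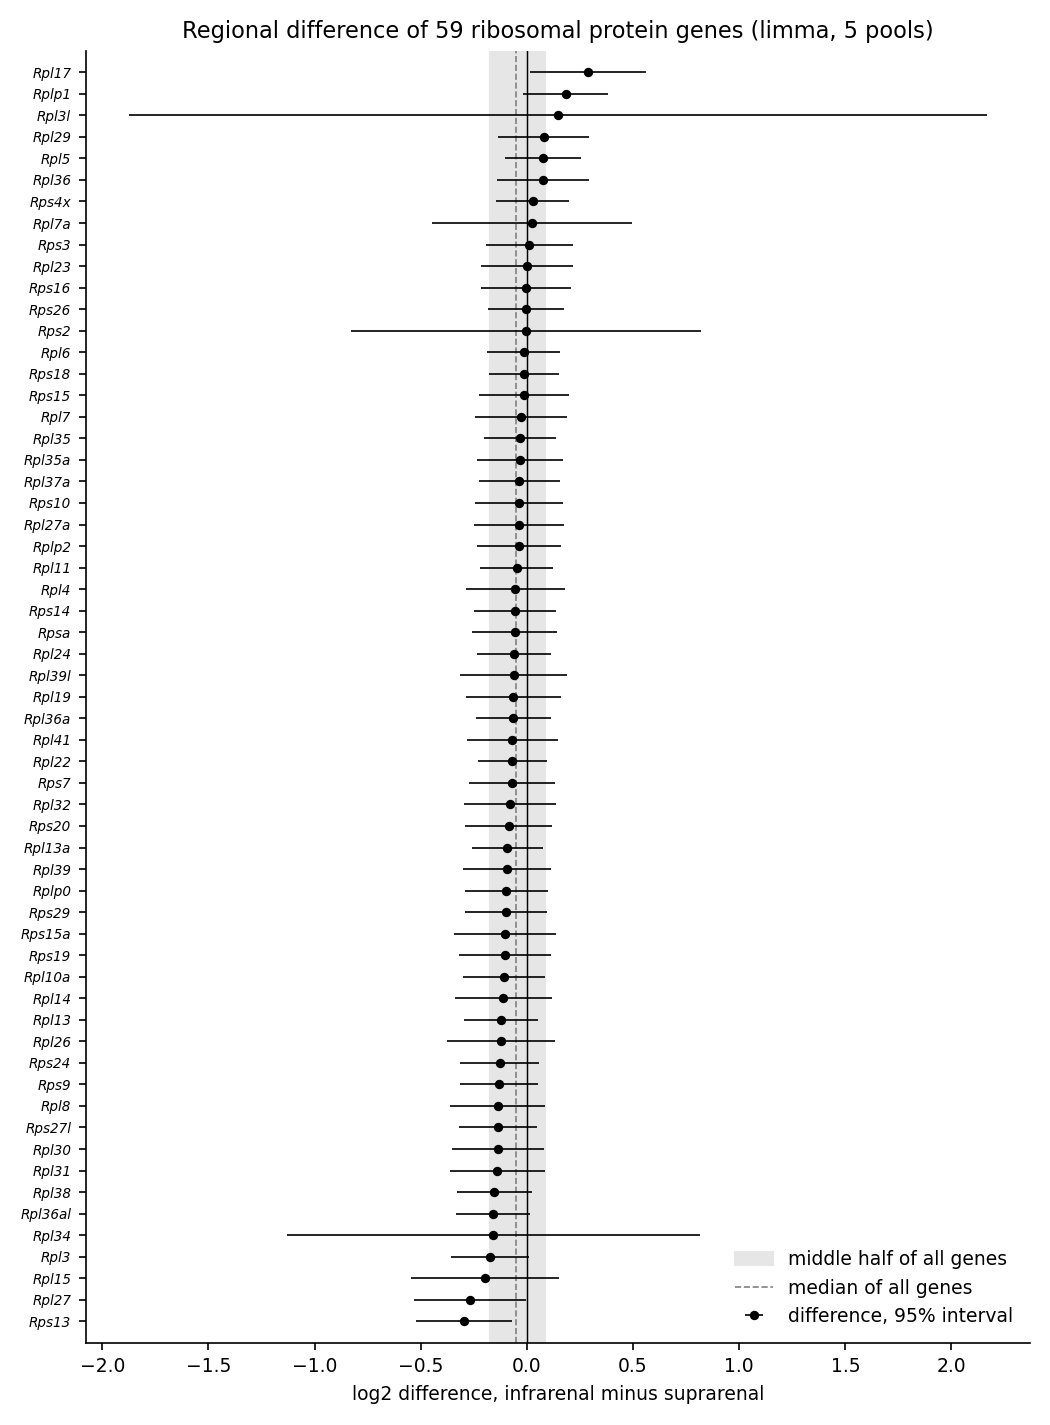
Log2 difference, infrarenal minus suprarenal (x axis), of the 59 members (y axis, sorted), with the 95% interval from limma over 5 pools. The grey band spans the quartiles of all genes and the dashed line their median of -0.049. The intervals of 56 members cross 0, and those of Rpl17, Rps13 and Rpl27 do not.

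The stalk of the large subunit, which recruits elongation factors, is built on Rplp0 with Rplp1 and Rplp2 attached. Rplp0 read 8.50, 8.31, 8.30, 8.48 and 8.19 in infrarenal arrays 1, 6, 8, 11 and 12, against 8.51, 8.52, 8.55, 8.32 and 8.35 in the suprarenal arrays of the same pools. The groups overlapped, and pools 1, 6, 8 and 12 were lower in infrarenal aorta. The difference was -0.096 ± 0.084 (SE, n = 5 pools; limma adjusted p = 0.743), with a 95% interval from -0.291 to 0.099. Its SD within regions, 0.117, ranked 6 among the 59 members from the smallest, and 29 among the 162 genes with a mean above 7. The smallest SD among members was 0.098 for Rpl5, followed by 0.104 for Rpl11. Rpl5 and Rpl11 bind a small ribosomal RNA together and, when free of ribosomes, the p53 regulator Mdm2. Rplp1 averaged 2.47 ± 0.19 in infrarenal and 2.28 ± 0.25 in suprarenal aorta (SD, n = 5 each), with a difference of 0.18 ± 0.09 (SE; limma adjusted p = 0.639), higher in 4 of 5 pools.

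The members of smallest p on the lower side did not pass. Rps13, a small subunit protein at the bridge between subunits, read 5.97, 5.31, 5.75, 5.44 and 5.31 in infrarenal arrays 1, 6, 8, 11 and 12, against 5.91, 5.81, 5.99, 5.72 and 5.81 in suprarenal arrays. Pool 1 alone was not lower. The difference was -0.29 ± 0.10 (SE, n = 5 pools; limma adjusted p = 0.639), and when both Rps13 probes were averaged it was 0.22, the other sign. After quantile normalization it was -0.16. Rpl27, a large subunit protein, averaged 5.31 ± 0.31 in infrarenal and 5.58 ± 0.10 in suprarenal aorta (SD, n = 5 each), with a difference of -0.27 ± 0.11 (SE; limma adjusted p = 0.639), and -0.14 after quantile normalization. Without pool 6 or without pool 12 neither gene had an unadjusted p under 0.05, and without pool 12 the differences were -0.24 for Rps13 and -0.19 for Rpl27.

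Rpl3, whose protein lies beside the peptidyl transferase centre, read 7.19, 6.61, 6.85, 6.99 and 6.79 in infrarenal arrays 1, 6, 8, 11 and 12, against 7.22, 6.96, 7.15, 7.04 and 6.92 in suprarenal arrays. Its difference of -0.17 ± 0.08 (SE; limma adjusted p = 0.639) was negative in every pool, from -0.36 to -0.035. Rpl36al, a close copy of Rpl36a, differed by -0.16 ± 0.08 and Rpl36a by -0.064 ± 0.076 (SE), and neither passed. Rps27l, a copy of Rps27 that p53 induces, differed by -0.14 ± 0.08 (SE), and by 0.0089 after quantile normalization. Rpl38, which in mouse embryos is needed for translation of Hox mRNAs, differed by -0.15 ± 0.08 (SE; limma adjusted p = 0.647). After quantile normalization the differences were -0.025 for Rpl3, -0.011 for Rpl36al and -0.0090 for Rpl38.

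On the higher side, besides Rpl17 and Rplp1, the members of smallest p were Rpl5, Rpl29, Rpl36 and Rps4x, with differences of 0.076, 0.079, 0.075 and 0.028 and adjusted p between 0.772 and 0.924 by limma. The brightest members lay near 0 with the rest, with differences of -0.068 for Rpl41, -0.063 for Rpl19 and -0.057 for Rps14.

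Rpl17 stood at the upper end of the members and was read by 3 probes, none with a RefSeq accession and all dim. Its protein sits near the exit of the peptide tunnel, and in mouse carotid artery it has been described as a brake on smooth muscle growth. The brightest probe read 0.64, 0.32, 0.58, 0.61 and 0.53 in infrarenal arrays 1, 6, 8, 11 and 12, against 0.055, 0.36, 0.36, 0.20 and 0.27 in suprarenal arrays. The groups overlapped through infrarenal array 6, the only one not above its own pool's suprarenal array. The second probe read -0.27, -0.54, -0.078, 0.083 and 0.046 in infrarenal arrays 1, 6, 8, 11 and 12, against -1.38, -1.19, -0.85, -0.58 and -0.66 in suprarenal arrays. All infrarenal values of this probe lay above all suprarenal values, as for 0.591% of all probes. The third, dimmest probe averaged -1.07 ± 0.48 in infrarenal and -1.53 ± 0.37 in suprarenal aorta (SD, n = 5 each) and was higher in 5 of 5 pools.

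The Rpl17 probes agreed in sign but not in size. Their differences were 0.29 ± 0.12, 0.78 ± 0.13 and 0.45 ± 0.17 log2 units from the brightest to the dimmest (SE, n = 5 pools), or 1.22-, 1.72- and 1.37-fold on the intensity scale. None passed (limma adjusted p = 0.639 for each). Averaged over the probes, the difference was 0.51, also not past the threshold. Differences with 1 pool left out ran from 0.21 to 0.37, 0.70 to 0.81 and 0.38 to 0.56, in the same order. Leaving out a pool could not turn their sign, so it is no test of it. The dimmer probes were higher in 5 of 5 pools. The brightest differed by -0.046 in pool 6 and by 0.23 to 0.58 in the other pools. After quantile normalization the differences of the 3 probes were 0.30, 0.75 and 0.32, and with an offset in place of the floor 0.24, 0.56 and 0.28. The brightest probe had an unadjusted p above 0.05 without pool 1, 8 or 11.

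**Figure D3:**
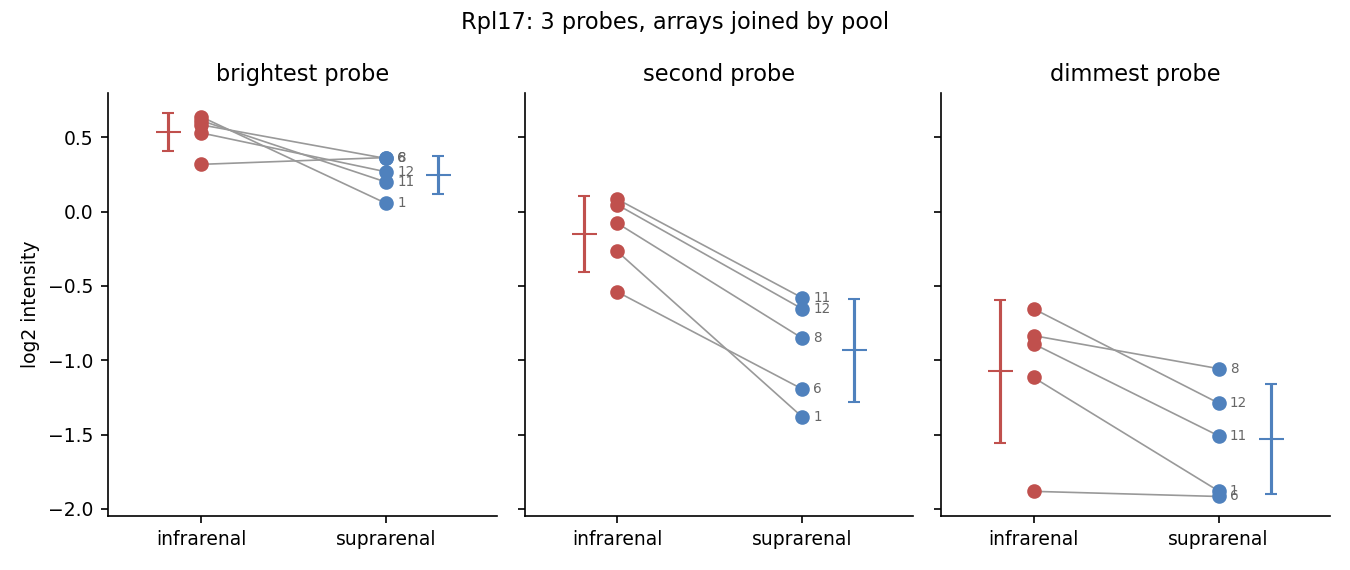
Log2 intensity (y axis) of the 3 Rpl17 probes on infrarenal (red, left) and suprarenal (blue, right) arrays, with lines joining the arrays of a pool, pool numbers at the right, and mean and SD beside the points. The regions do not overlap on the second probe, where all 5 pools are higher in infrarenal aorta.

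Several probes were present for 12 members, 5 with 3 probes and 7 with 2. Their levels differed by more than 3 log2 units for 8 of these genes, most for Rpl35, whose probes averaged 8.26 and -3.74. Rpl5 spanned 9.25 and Rps20 7.65 log2 units. The probes of 6 genes shared the sign of the difference, Rpl4, Rpl7, Rpl11, Rpl17, Rpl29 and Rpl35, and those of the other 6 did not. For genes with more than 1 probe above 7, those probes differed by -0.054 and -0.044 for Rpl4 and by -0.029 and -0.081 for Rpl7. They differed by -0.070 and -0.076 for Rpl22, and by 0.076 and -0.023 for Rpl5. The third Rpl7 probe, at 6.63, differed by -0.15. Rpl27a, with probes at 8.27 and 6.88, had -0.037 and -0.18. Rps4x, with probes at 8.02 and 6.15, had 0.028 and -0.17. The brighter Rpl4 probe had no value on either array of pool 6, so its difference rests on 4 pools.

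The dim probes of Rps13 and Rpl5 had positive differences, while the bright ones were negative for Rps13 and of either sign for Rpl5. The dim Rps13 probe read -1.79, -1.73, -1.54, -1.01 and -1.16 in infrarenal arrays 1, 6, 8, 11 and 12, against -2.41, -3.01, -1.73, -1.84 and -1.97 in suprarenal arrays. It was higher in infrarenal aorta in every pool, as were 3.85% of all probes. The difference was 0.74 ± 0.21 (SE; limma adjusted p = 0.639), where the bright Rps13 probe differed by -0.29. The dimmest Rpl5 probe read -0.94, -0.96, -0.49, -0.56 and -0.42 in infrarenal arrays 1, 6, 8, 11 and 12, against -1.69, -4.16, -1.09, -1.11 and -1.13 in suprarenal arrays. All infrarenal values lay above all suprarenal values, as for 0.591% of all probes, and suprarenal array 6 lay far below the rest. The difference was 1.16 ± 0.39 (SE; limma adjusted p = 0.639), and 0.65 without pool 6. With an offset in place of the floor the dim probes differed by 0.37 for Rps13 and 0.59 for Rpl5. The bright Rpl5 probes differed by 0.076 and -0.023.

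These dim probes share their kind of accession. Of the 14 member probes without a RefSeq accession, 5 had an unadjusted p under 0.05 and were higher in infrarenal aorta, all of them probes of Rpl17, Rps13 and Rpl5. Of the 62 with one, 0 were higher and 3 were lower at that p, those of Rps13, Rpl27 and a dimmer Rpl27a probe. Over all probes, 3.05% were higher and 4.51% lower. Among 3021 probes of other genes with no RefSeq accession and a mean between -2 and 1, 115 were higher and 71 lower. This division was made after the values were seen and is given as a description. The probes' own sequences were not used here.

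**Figure D4:**
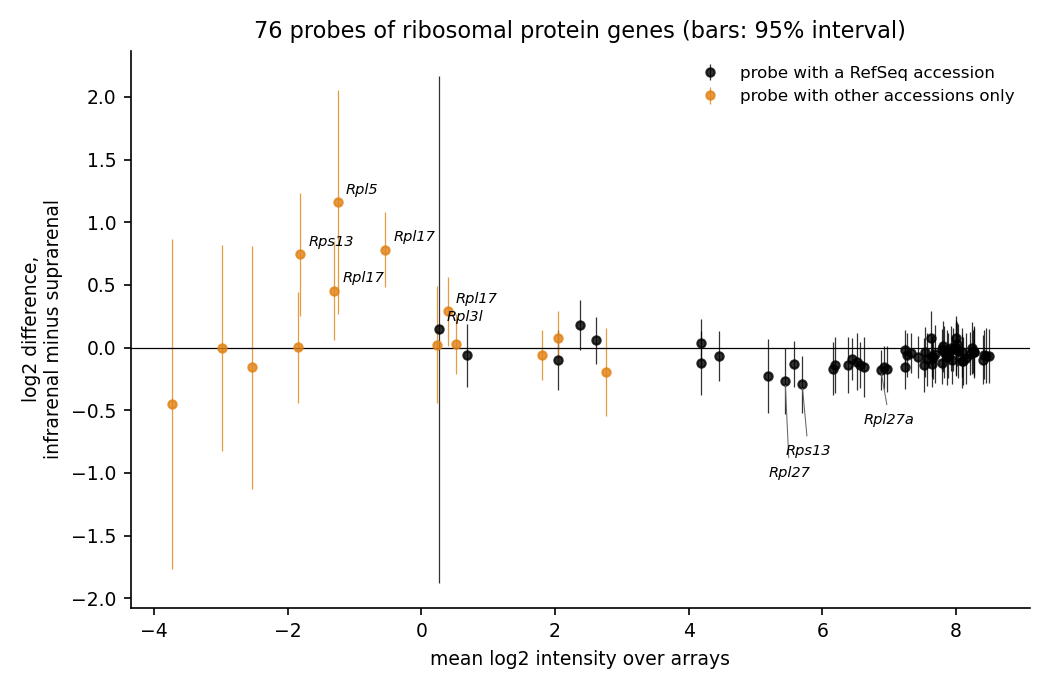
Log2 difference, infrarenal minus suprarenal (y axis, bars: 95% interval of limma), against mean log2 intensity (x axis) for the 76 member probes, with a RefSeq accession (black) or with other accessions only (orange). Names mark probes with an unadjusted p under 0.05, and Rpl3l. The named orange probes of Rpl17, Rps13 and Rpl5 lie above 0, and the named black probes of Rps13, Rpl27 and Rpl27a below it. Of all 14 orange probes 9 lie above 0 and 5 below. The brightest probes lie close to 0.

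Rpl3l varied most among the members. It replaces Rpl3 in ribosomes of skeletal muscle and heart. It read -0.85, -0.00072, 2.22, 1.09 and -0.79 in infrarenal arrays 1, 6, 8, 11 and 12, against 0.62, -1.72, 1.38, -2.22 and 2.89 in suprarenal arrays. The regions overlapped widely, with a difference of 0.15 ± 0.88 (SE, n = 5 pools; limma adjusted p = 0.968) and an SD within regions of 1.78, beside a median of 0.166 over the members. The sign turned without pool 6, 8 or 11, with differences of -0.25, -0.029 and -0.65, and without pool 12 the difference was 1.10.

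The median of the skeletal muscle markers followed the same arrays, but some single markers did not. Tnnt1, Tnni1, Tnnc1 and Myh7 read -0.52, -1.24, -5.17 and -4.61 on infrarenal array 8, where the median was highest. On suprarenal array 12 they read 2.57, 2.66, 0.91 and -0.97. The median of 19 markers was 1.58, 2.92, 4.74, 4.01 and 1.82 in infrarenal arrays 1, 6, 8, 11 and 12, against 3.84, 0.52, 3.32, 0.80 and 4.53 in suprarenal arrays. The 5 arrays with the highest Rpl3l were the 5 with the highest marker median: infrarenal 8 and 11 and suprarenal 1, 8 and 12. By pool, Rpl3l differed by -1.48, 1.72, 0.84, 3.31 and -3.67, and the marker median by -1.85, 2.05, 0.81, 3.43 and -2.69, in pools 1, 6, 8, 11 and 12. Rpl3 itself differed by -0.035, -0.36, -0.30, -0.049 and -0.13 in the same pools.

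**Figure D5:**
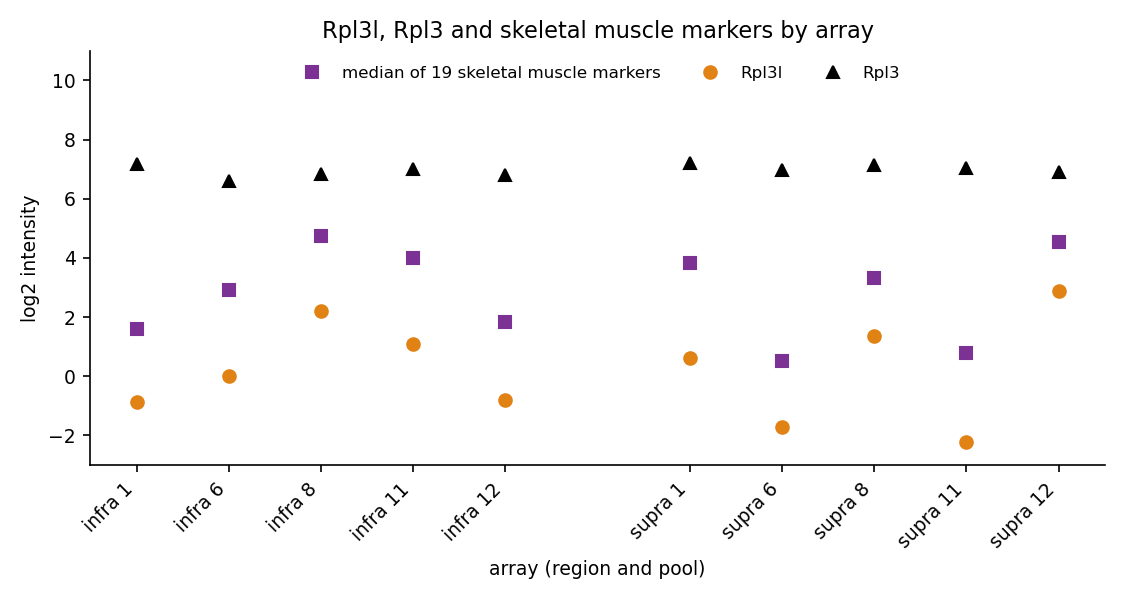
Log2 intensity (y axis) of Rpl3l (circles), Rpl3 (triangles) and the median of 19 skeletal muscle markers (squares) on each array (x axis, infrarenal at the left). Rpl3l, from -2.22 to 2.89, is high on the arrays where the marker median is high, while Rpl3 stays between 6.61 and 7.22.

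Rpl39l read 1.32 in infrarenal and 1.47 in suprarenal aorta of pool 1. The remaining infrarenal arrays read 0.35 to 0.55, and the remaining suprarenal ones 0.18 to 0.86. Both parts of pool 1 were thus the highest of their region, and the regional difference was -0.062 ± 0.109 (SE; limma adjusted p = 0.877). Its parent gene Rpl39 averaged 7.52 ± 0.19 in infrarenal and 7.61 ± 0.15 in suprarenal aorta (SD, n = 5 each).

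The level of the bright members as a group varied between arrays. The median of the 36 members above 7 was 8.15, 7.79, 7.99, 8.02 and 7.86 in infrarenal arrays 1, 6, 8, 11 and 12, against 8.04, 7.86, 8.11, 7.93 and 7.92 in suprarenal arrays. The median of the 126 other genes above 7 was 7.56, 7.20, 7.36, 7.40 and 7.32, against 7.52, 7.59, 7.59, 7.54 and 7.33. Infrarenal array 6 was lowest in both, and suprarenal array 6 was the lowest of its region for the members but level with array 8 at the top for the others. The SD within regions had a median of 0.152 over the bright members and 0.179 over the other bright genes. By pool, the median difference of the other bright genes was -0.0025, -0.225, -0.182, -0.039 and 0.023, and that of 12 brown adipocyte markers -0.088, -2.20, -0.54, -1.80 and 1.09, in pools 1, 6, 8, 11 and 12. Both were lowest in pool 6 and highest in pool 12, but pools 8 and 11 stood in opposite order. The brightest brown adipocyte marker, at 7.70, lies in both sets. Any link between the sets was not tested.

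The other genes of the translation pathway gave no call either. Of 14 genes listed for elongation and termination factors, Tpt1, Eef2k and Eef1e1 among them, 12 were lower, with a median difference of -0.11. Of 36 genes from a list of initiation factors and their regulators, 30 were lower, with -0.11. Of 55 ribosome biogenesis genes 47 were lower, with -0.11, and of 12 genes of ribosome partners 9, with -0.096. Of 15 genes of mTOR and the Rps6 kinases 11 were lower, with -0.15. Of all genes 60.4% were lower. After quantile normalization the medians were -0.037 for elongation and termination factors, -0.0016 for initiation factors, -0.026 for biogenesis, 0.022 for partners and -0.046 for mTOR and the Rps6 kinases. As deposited but without pool 12 they were -0.081 for elongation and termination factors, -0.081 for initiation factors and -0.068 for biogenesis. They were then -0.077 for partners and -0.13 for mTOR and the Rps6 kinases. The median of mTOR and the Rps6 kinases was -0.041 without pool 11. None of these genes passed over all probes.

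The genes of smallest p in these lists all had an adjusted p of 0.639 by limma. Tpt1, whose mRNA also begins with a pyrimidine tract, differed by -0.27 ± 0.07 and Etf1, the release factor, by -0.29 ± 0.08 (SE, n = 5 pools). Eif5, which helps to select the start codon, differed by -0.23 ± 0.09 and Eif4g2 by -0.26 ± 0.09. Rrn3, which brings RNA polymerase I to ribosomal DNA, differed by -0.32 ± 0.10 and Pno1, of small subunit assembly, by -0.33 ± 0.11. Srp72, of the signal recognition particle, differed by -0.32 ± 0.09 and the kinase gene Rps6ka3 by -0.38 ± 0.14.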

How the data were processed

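Total RNA of each aortic part was amplified from its poly(A) tail into biotin-labelled cRNA and stained with Cy5-streptavidin, per the labels' protocols, from 0.34 to 0.54 µg of RNA. The deposited intensity values were already scaled per array, with medians of 1.001 to 1.003. How the arrays were scanned, background-corrected and scaled was not stated in the labels. There were 1968 missing values. Values under 0.0278 (percentile 1 of the positive values; 5328 of them) were set to it before log2 was taken, giving -5.17 as the lowest log2 value of the deposited intensities. Probes needed 3 values in each region. Of the 76 member probes, 1 had a value at the floor.

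Probe symbols came from the platform annotation, updated by Entrez identifier through the RefSeq gene table of GRCm38.p6: 21615 probes had 1 symbol (21487 matched), 681 several and 13931 none. The regions were compared with limma 3.58.1 (R 4.3.3; variance trend, pool as block, two-sided), with Benjamini-Hochberg adjustment over all 36061 probes. Per the series' design text each pool of aortas was divided into both parts, and arrays were paired by the number in their titles, taken to name the pool. Deviations of paired arrays correlated at 0.045, 0.0064, -0.033, -0.054 and -0.093 in pools 1, 6, 8, 11 and 12. The script was tested on simulated data.

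Members and gene lists were chosen with earlier results of these data known. Named were Rpl17, Rplp0, the 6 members of smallest p on each side, the 4 brightest and 4 dimmest, the 4 of largest spread, the 3 genes whose probes differed most in level and in difference, paralogues, and up to 2 genes of each other list. Other genes were named after their values were seen. Alternatives were quantile normalization, an offset of 0.2701 for the floor, the dimmest 30% left out, no replicate block, no trend, averaged probes, symbols as first annotated (for the member median), and each pool left out.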

Additional observations from a re-analysis of the deposited data

Results flagged for a closer look

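Among 94 sets of 5 arrays of 1 region, for named members, their further probes and list medians, 4 held 1 array set well apart. About 5 would be set apart by chance. Rpl39l read 1.32 on infrarenal array 1, against 0.35 to 0.55 on the other infrarenal arrays. Rpl39 read 7.85 on the same array, against 7.38 to 7.51. The dimmest Rpl5 probe read -4.16 on suprarenal array 6, against -1.69 to -1.09 on the other suprarenal arrays. The median of the endothelial markers was 3.97 on infrarenal array 8, against 3.37 to 3.51 on the other infrarenal arrays.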

How the results depend on the processing

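0 members passed under each of the 11 alternatives run, and 1 of all probes passed after quantile normalization. Without the replicate block that pairs both parts of a pool, the member median was -0.063, as with it, and 1 member instead of 2 was lower at an unadjusted p under 0.05. No other call changed without the block. Members higher at that p, 1 as reported, numbered 3 after quantile normalization, 0 without the variance trend, 3 with probes averaged, and 0 to 1 with a pool left out. Members lower, 2 as reported, numbered 0 after quantile normalization, 1 without the trend, 1 with probes averaged, and 0 to 4 with a pool left out (4 without pool 1, 0 without pool 6 and without pool 12). The share of all probes at that p was 7.56% as reported, 7.65% without the block and 5.72% after quantile normalization. It was 6.44% without the trend and 7.47% with probes averaged. With a pool left out it ran from 4.09% (without pool 6) to 10.9% (without pool 12). After quantile normalization the initiation factor and ribosome partner medians were -0.0016 and 0.022, and the differences turned to 0.0089 for Rps27l, 0.0034 for Rpl41, 0.00060 for Rpl19, 0.0063 for Rps14, 0.078 for Rpl35, 0.050 for Rpl39, 0.042 for Rpl36a and 0.11 for the second Rpl5 probe. With probes averaged, Rps4x turned to -0.071 and Rps13 to 0.22. With an offset in place of the floor, Rpl3l turned to -0.014. With 1 pool left out, differences ran from -0.13 to 0.0057 for Rpl41, -0.12 to 0.0074 for Rpl19, -0.23 to 0.21 for Rps2, -0.61 to 0.073 for Rpl34, -0.10 to 0.24 for Rpl7a, -0.65 to 1.10 for Rpl3l, -0.12 to 0.0086 for Rpl39l and -0.047 to 0.0050 for the second Rpl5 probe. The cause of these turns was not tested.

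Precision is limited by the number of arrays. With the symbols as first annotated the member median was -0.063.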
